A study of Mus musculus with 9 samples.

Results

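Collagens are proteins whose chains wind around each other into a triple helix, most of them secreted and some spanning the cell membrane. The genes described here are the 44 gene symbols of the form Col, number, a, number among the 25239 symbols of the read count tables from mouse embryonic stem cells (ESCs), chosen by name alone. They were divided by the kind of assembly the chain is known for into 11 fibrillar, 6 basement membrane (type IV only) and 27 other collagens. Their read counts were compared between control ESCs and a pair of mutant lines with altered RBBP4, a WD-repeat histone-binding protein found in PRC2, NuRD and SIN3 complexes, which remove or add histone marks.

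The control was the E14 line with wild-type *Rbbp4* (Rbbp4+/+). Rbbp4Ins/Ins carried the same short in-frame insertion on both alleles. Rbbp4Ins/Del carried that insertion on 1 allele and an in-frame deletion on the other. Each mutant was 1 ESC clone made with CRISPR-Cas9, so that genotype and clone cannot be told apart, and all lines grew in medium with serum and leukemia inhibitory factor. Each group had 3 RNA-seq libraries of polyadenylated RNA. No label says that they came from separate cultures, and p-values therefore measure only the spread between these libraries, which may be technical.

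Fibrillar collagens (types I, II, III, V, XI, XXIV and XXVII) pack side by side into the fibrils of bone, cartilage, skin and tendon. Type IV chains, encoded in head-to-head gene pairs, form the sheet-like network of basement membranes, which ESCs and the early embryo build together with laminins and nidogens. The other types decorate fibrils (the FACIT group), span the cell membrane, form beaded filaments (type VI) or anchor basement membranes (type VII), and the multiplexin *Col18a1* encodes the basement membrane protein whose end fragment is endostatin.

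The libraries held between 15838064 and 21366868 reads assigned to genes. *Rbbp4* itself had 9932, 9965 and 10120 normalized counts in control, 5485, 5551 and 5776 in Rbbp4Ins/Ins, and 10130, 10340 and 10600 in Rbbp4Ins/Del. Its mRNA was thus lower in Rbbp4Ins/Ins (log2 fold change -0.84, SE 0.029), whereas all 3 Rbbp4Ins/Del libraries lay above control by a log2 difference of 0.05 that was not called (SE 0.028, Benjamini-Hochberg adjusted p = 0.107 by the quasi-likelihood test of edgeR). Normalized counts are reads rescaled to a common effective library size, the mean over the 9 libraries. ESC markers were high in every library, with the 10 listed genes summing to between 101200 and 105800 normalized counts in control, 127700 and 129600 in Rbbp4Ins/Ins, and 126300 and 129700 in Rbbp4Ins/Del. Of the 10, 7 were called higher and 2 lower in Rbbp4Ins/Ins, and 6 and 1 in Rbbp4Ins/Del. *Utf1* was lower in both (-0.48 and -0.72). Of all genes, 29% and 30.6% were called higher and 29.4% and 31.9% lower in the 2 lines.

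Promoter sequences are shown for 4 fibrillar genes, *Col5a1* with *Col5a3*, which encode chains of the same type V collagen and moved in opposite directions, and *Col11a1* with *Col3a1*, which moved down with *Col5a1*. Each is the 150 bases before the RefSeq start, 5′ to 3′, in build GRCm38.p6, and holds no exon annotated in GENCODE M21. Capitals mark CCAAT boxes (CCAAT), TATA boxes (TATAAA) and GC boxes (GGGCGG), searched on both strands. GC boxes may overlap each other.
Col5a1 (chr2:27886275-27886424, plus strand): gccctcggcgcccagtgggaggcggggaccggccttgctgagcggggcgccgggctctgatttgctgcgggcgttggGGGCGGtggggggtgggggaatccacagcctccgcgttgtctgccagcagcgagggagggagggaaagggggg
Col5a3 (chr9:20815068-20815217, minus strand): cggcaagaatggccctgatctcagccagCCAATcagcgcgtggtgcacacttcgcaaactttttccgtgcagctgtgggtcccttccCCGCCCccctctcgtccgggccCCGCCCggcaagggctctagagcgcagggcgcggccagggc
Col11a1 (chr3:114030390-114030539, plus strand): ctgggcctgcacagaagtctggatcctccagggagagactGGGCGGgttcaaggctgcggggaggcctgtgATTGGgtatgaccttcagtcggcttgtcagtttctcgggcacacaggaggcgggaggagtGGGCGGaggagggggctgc
Col3a1 (chr1:45311388-45311537, plus strand): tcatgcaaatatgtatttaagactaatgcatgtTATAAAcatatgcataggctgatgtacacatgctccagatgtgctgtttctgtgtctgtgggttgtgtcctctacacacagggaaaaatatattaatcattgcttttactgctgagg
Of the 44 genes, 35 had an entry in the RefSeq promoter table, with 38 windows of 250 bases before a start. The GC box was in 57.9% of these windows and in 32.7% of all 32851 windows of the same length, the CCAAT box in 34.2% and 33.8%, and the TATA box in 13.2% and 12.4%. Of the 250-base windows, that of *Col5a1* held 28 CG dinucleotides and 2 GC boxes, and that of *Col5a3* held 17 CG dinucleotides, 2 GC boxes and 1 CCAAT box. That of *Col11a1* held 7 CG dinucleotides, 2 GC boxes and 1 CCAAT box, whereas that of *Col3a1* held no CG dinucleotide and 1 TATA box. The genes that fell thus included windows of both kinds, and a match of these letters is a description and not a binding site.

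Collagen reads in all lines came mostly from 1 gene, *Col18a1*. It took 71.5% of all normalized collagen counts in control, 78.2% in Rbbp4Ins/Ins and 74.2% in Rbbp4Ins/Del. Its levels were 12420, 12750 and 12210 normalized counts in control, 12310, 12350 and 12510 in Rbbp4Ins/Ins, and 13020, 12600 and 12730 in Rbbp4Ins/Del. The control range overlapped both mutant ranges, and the 95% intervals of the log2 fold changes were -0.06 to 0.05 in Rbbp4Ins/Ins and -0.02 to 0.09 in Rbbp4Ins/Del. Levels of different genes were compared per kb of the longest protein-coding transcript. On that scale *Col18a1* stood at 2242 normalized counts per kb over the 9 libraries, *Col4a1* at 175, *Col9a2*, a FACIT chain of cartilage fibrils, at 155, *Col4a2* at 88.3 and *Col5a1* at 47.4. The type I chains *Col1a1* and *Col1a2*, the bulk of bone and skin collagen, stood at 48.4 and 46.8 normalized counts per kb in control, where *Col5a1* stood at 70.1.

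**Figure D1:**
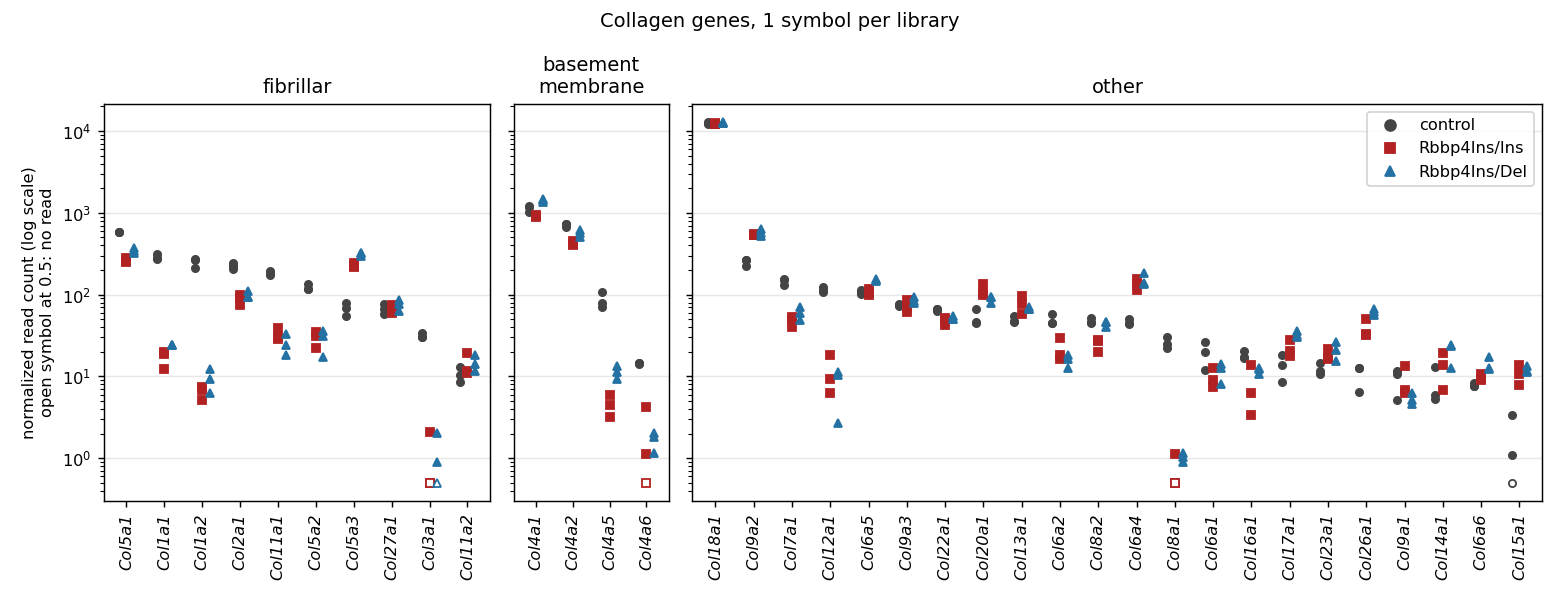
Normalized read counts (vertical log axis) of the 36 tested collagen genes, 1 symbol per library, split into fibrillar, basement membrane and other collagens and ordered by control mean. Open symbols at 0.5 mark libraries with no read, and *Col18a1* stands between 12210 and 13020 in every library while *Col1a1* and *Col1a2* drop from above 200 in control to below 30 in both mutants.

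Fibrillar collagens were mostly lower in both mutant lines. Of 44 collagens, 36 passed the filter on low counts and were tested, and a gene was called at an adjusted p of at most 0.01, as 58.4% of all 14125 genes tested were in Rbbp4Ins/Ins and 62.5% in Rbbp4Ins/Del. In Rbbp4Ins/Ins, 16 tested members were lower and 7 higher, where 29.4% and 29% of all genes were called lower and higher. In Rbbp4Ins/Del, 14 were lower and 10 higher, where 31.9% and 30.6% of all genes were called. Read against these shares, lower calls were above and higher calls below that of all genes in Rbbp4Ins/Ins, and both directions were near it in Rbbp4Ins/Del. In Rbbp4Ins/Ins the libraries of mutant and control did not overlap for 9 members on the higher and 18 on the lower side. Of all genes, 34.9% and 34.2% did so, and 69.1% on either side. In Rbbp4Ins/Del these were 13 and 16 members, beside 35.9% and 36.9% of all genes, and 72.8% on either side. The lower members moved far: 13 were lower by over 2-fold in Rbbp4Ins/Ins and 12 in Rbbp4Ins/Del, where 8.96% and 10.2% of all genes did so, and 6 and 7 were higher by over 2-fold, where 7% and 8.45% of all genes did so. The comparisons share their control libraries. In both, 14 members were lower and 6 were higher, against 26.7% and 25.6% of all genes, and fewer cells with a transcript cannot be told apart from less of it per cell. Within the classes, 7 of 10 tested fibrillar genes were lower and 1 was higher in each line, with median log2 fold changes of -1.69 and -1.64, where the medians of all genes were 0.0 and -0.01. Among 4 tested basement membrane genes, 4 were lower in Rbbp4Ins/Ins, and 3 were lower and 1 higher in Rbbp4Ins/Del. The 22 tested other collagens were divided, with 6 higher and 5 lower in Rbbp4Ins/Ins and 8 higher and 4 lower in Rbbp4Ins/Del.

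**Figure D2:**
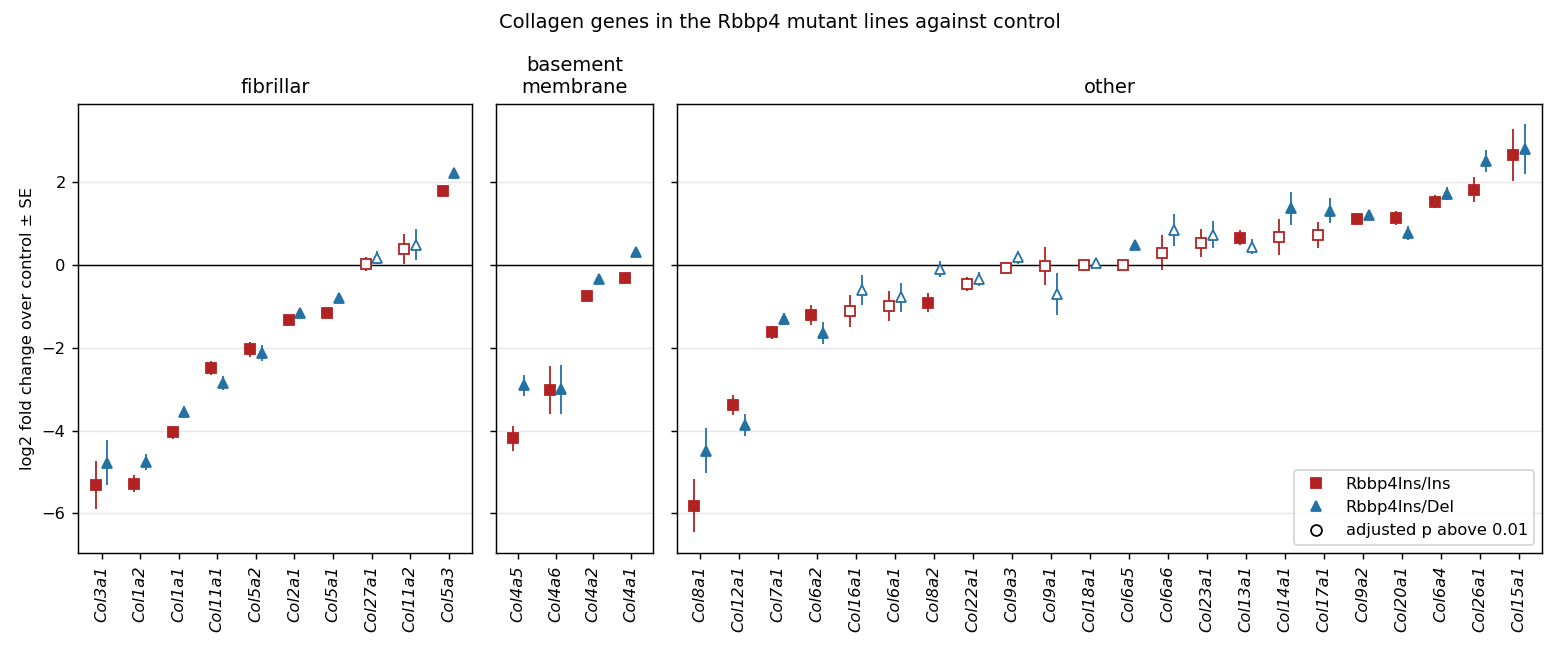
Log2 fold change over control (vertical axis, bars are 1 SE) of each tested collagen in Rbbp4Ins/Ins (squares) and Rbbp4Ins/Del (triangles), ordered within class, with filled symbols for an edgeR adjusted p of at most 0.01. In both lines 7 fibrillar genes lie below 0 and *Col5a3* alone is called above it, whereas other collagens extend from *Col8a1* (-5.81 and -4.49) to *Col15a1* (2.65 and 2.80).

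The type I chains fell far in both lines. *Col1a1* had 272, 311 and 277 normalized counts in control, 19.7, 12.4 and 19.0 in Rbbp4Ins/Ins, and 24.5, 24.4 and 24.3 in Rbbp4Ins/Del. *Col1a2* had 268, 271 and 211 in control, 5.13, 6.77 and 7.40 in Rbbp4Ins/Ins, and 12.3, 6.32 and 9.26 in Rbbp4Ins/Del. For both genes the highest mutant value lay more than 10-fold under the lowest control value. The log2 fold changes were -4.04 (SE 0.16) and -3.55 (SE 0.15) for *Col1a1*, and -5.28 (SE 0.21) and -4.76 (SE 0.20) for *Col1a2*, in Rbbp4Ins/Ins and Rbbp4Ins/Del (edgeR adjusted p from 8.5e-24 to 5.4e-23). *Col3a1*, the chain of type III collagen of skin and vessels, had 95 reads in the 3 control libraries together, 2 in Rbbp4Ins/Ins and 3 in Rbbp4Ins/Del. Control exceeded the mutants 46.8-fold (95% exact interval 12.6 to 392) and 30.7-fold (10.2 to 151), and these intervals cover counting error only. Both reads of Rbbp4Ins/Ins came from replicate 3, without which that line had none, and 2 of the 3 reads of Rbbp4Ins/Del came from replicate 1, without which its log2 fold change moved from -4.78 to -5.63.

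Of the cartilage fibril chains, *Col2a1* and *Col11a1* fell as well. *Col2a1*, the chain of type II collagen, had 245, 221 and 205 normalized counts in control, 91.5, 99.3 and 75.1 in Rbbp4Ins/Ins, and 93.0, 112 and 94.9 in Rbbp4Ins/Del, with log2 fold changes of -1.34 (SE 0.12) and -1.16 (SE 0.12). *Col11a1*, which nucleates fibrils, had 195, 184 and 173 in control, 29.1, 39.5 and 30.7 in Rbbp4Ins/Ins, and 32.7, 24.4 and 18.5 in Rbbp4Ins/Del, with log2 fold changes of -2.49 (SE 0.16) and -2.86 (SE 0.17). For both genes the mutant libraries lay below all control libraries. Its partner chain *Col11a2* stayed between 8.55 and 19.2 normalized counts in all libraries, with log2 fold changes of 0.38 (SE 0.37) and 0.49 (SE 0.37) that did not pass (edgeR adjusted p = 0.377 and 0.228). In the same class *Col27a1* had 57.4 to 76.5 in control and 59.2 to 86.8 in the mutants, with 95% intervals of the log2 fold change from -0.31 to 0.36 and from -0.16 to 0.50, and *Col24a1*, at 8 to 17 reads per group, was not tested.

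The type V genes were split. *Col5a1* had 592, 586 and 590.0 normalized counts in control, 253, 283 and 259 in Rbbp4Ins/Ins, and 369, 319 and 339 in Rbbp4Ins/Del, with log2 fold changes of -1.16 (SE 0.071) and -0.79 (SE 0.068). *Col5a2*, which pairs with it in most type V collagen, had 119, 135 and 116 in control, 35.1, 31.6 and 22.2 in Rbbp4Ins/Ins, and 17.4, 31.6 and 35.9 in Rbbp4Ins/Del, with log2 fold changes of -2.04 (SE 0.19) and -2.12 (SE 0.19). Both genes were thus lower in all mutant libraries than in any control library. *Col5a3*, the less widespread chain, had 54.7, 78.6 and 68.2 in control, 218, 222 and 245 in Rbbp4Ins/Ins, and 299, 319 and 319 in Rbbp4Ins/Del. It was the only fibrillar gene called higher, by 1.78 (SE 0.12) and 2.23 (SE 0.11) on the log2 scale (edgeR adjusted p = 3.4e-16 and 4.5e-20). The promoters of *Col5a1* and *Col5a3* printed above belong to this pair.

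Basement membrane collagens differed between the lines. The *Col4a1* and *Col4a2* genes lie head to head on chromosome 8 (11198423 to 11312826 and 11312805 to 11449287 in GRCm38), with starts 21 bases apart inside a short overlap, and encode the chains of the widespread type IV network. *Col4a1* had 1211, 1171 and 1034 normalized counts in control, 949, 919.7 and 888 in Rbbp4Ins/Ins, and 1458, 1421 and 1365 in Rbbp4Ins/Del. It was therefore below control in every Rbbp4Ins/Ins library and above control in every Rbbp4Ins/Del library, at -0.31 (SE 0.051) and 0.31 (SE 0.049) on the log2 scale (edgeR adjusted p = 1.7e-06 and 5.8e-07). It was the only one of the 36 tested members called in opposite directions. *Col4a2* had 738, 735 and 679.9 in control, 422, 450.2 and 408 in Rbbp4Ins/Ins, and 611, 575 and 508 in Rbbp4Ins/Del. It was lower in both lines, with log2 fold changes of -0.75 (SE 0.065) and -0.34 (SE 0.062), and the mutant libraries again lay below the control range. The median log2 fold change of the 37 other genes tested within 5 Mb of *Col4a1* was 0.16 in Rbbp4Ins/Ins and 0.19 in Rbbp4Ins/Del. Such medians varied between collagens, for example -0.36 and -0.39 around *Col3a1* and 0.05 and 0.08 around *Col1a1*. The part of the surroundings in the collagen values was not tested.

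The X-linked pair *Col4a5* and *Col4a6*, whose starts lie 1309 bases apart and whose chains serve kidney, lung and smooth muscle basement membranes, fell far in both lines. *Col4a5* had 108, 79.6 and 71.5 normalized counts in control, 5.99, 4.51 and 3.17 in Rbbp4Ins/Ins, and 11.2, 13.5 and 9.26 in Rbbp4Ins/Del, with log2 fold changes of -4.19 (SE 0.30) and -2.91 (SE 0.25). *Col4a6* had 44 reads in control against 5 in each mutant, so that control exceeded them 8.67-fold (95% exact interval 3.45 to 28.0) and 8.52-fold (3.39 to 27.5). Replicate 3 held 4 of the 5 reads of Rbbp4Ins/Ins, and the log2 fold change moved from -3.02 to -4.57 without it and to -2.34 without replicate 1. On the X chromosome as a whole the 531 genes tested had a median log2 fold change of -0.20 in each line. The part of that shift in the values of this pair was not tested. *Col4a3* and *Col4a4*, the third pair, had 8 and 5 reads in the 3 control libraries and 4 to 7 per mutant, and were not tested.

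**Figure D3:**
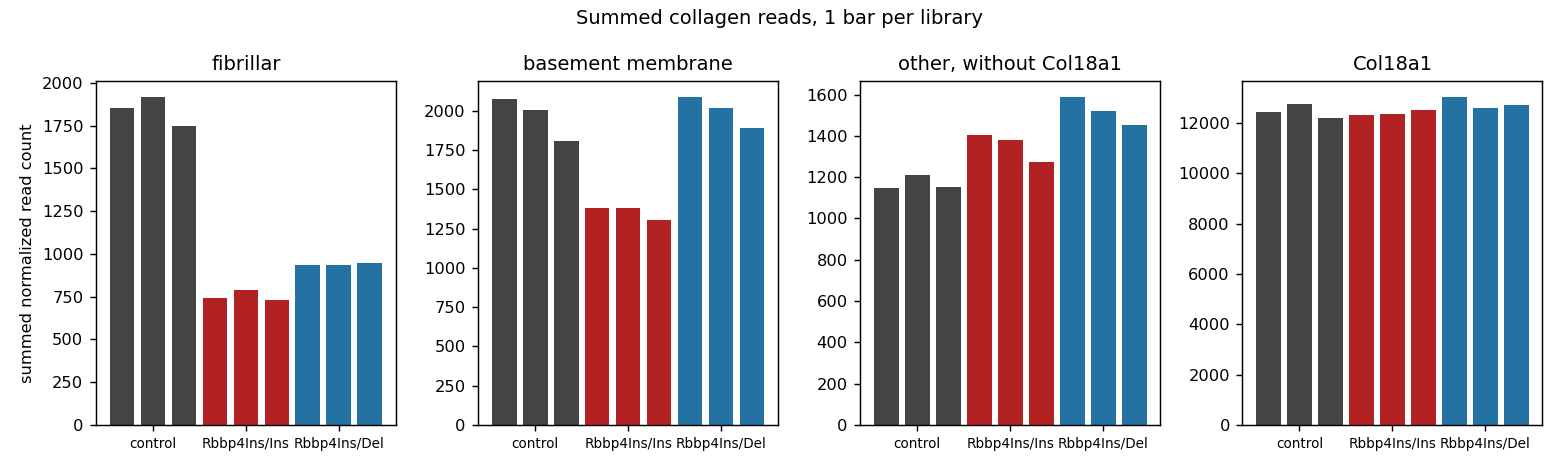
Summed normalized read counts (vertical axes, each from 0) of the fibrillar, basement membrane and other collagens, with *Col18a1* on its own axis, 1 bar per library in the order of the replicate numbers. Fibrillar sums drop in both mutants, basement membrane sums of Rbbp4Ins/Ins lie below those of both other groups, and the *Col18a1* bars are level.

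Summed over a class, fibrillar collagens were lower in both lines and basement membrane collagens in Rbbp4Ins/Ins. The 11 fibrillar genes summed to 1838 ± 85.3 normalized counts (SD, n = 3) in control, 753 ± 29.1 in Rbbp4Ins/Ins and 938 ± 7.56 in Rbbp4Ins/Del, which is 0.410 and 0.510 of control. The 6 basement membrane genes summed to 1961 ± 138 in control, 1355 ± 44.0 in Rbbp4Ins/Ins and 2085, 2016 and 1888 in the libraries of Rbbp4Ins/Del, which is 0.691 and 1.02 of control, with overlap between Rbbp4Ins/Del and control although *Col4a1* itself lay above control there. The other collagens without *Col18a1* summed to 1168 ± 35.6, 1354 ± 69.5 and 1519 ± 66.7. The fibrillar share of all collagen counts was 10.5% in control, 4.75% in Rbbp4Ins/Ins and 5.44% in Rbbp4Ins/Del. The share of the basement membrane class was 11.3%, 8.55% and 11.6%. That class holds type IV genes only, and *Col18a1*, also a basement membrane protein, is counted among the other collagens.

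Several collagens outside both classes were higher in the mutants. *Col9a2* was the most abundant of them, at 263, 264 and 222 normalized counts in control, 548, 534 and 533 in Rbbp4Ins/Ins, and 636, 559 and 525 in Rbbp4Ins/Del. It was higher by 1.10 (SE 0.077) and 1.20 (SE 0.077) on the log2 scale in libraries that did not overlap control, whereas the other type IX chains were not called. *Col9a3*, which shares 6.07% of its exonic length with *Tcfl5* on the opposite strand, had log2 fold changes of -0.07 and 0.18 (SE 0.15 each, edgeR adjusted p = 0.717 and 0.269), and *Col9a1* had 16 to 27 reads per group. *Col20a1*, a FACIT chain, had 44.5, 46.1 and 67.1 in control, 134, 98.2 and 106 in Rbbp4Ins/Ins, and 93.0, 93.8 and 78.7 in Rbbp4Ins/Del, and was higher by 1.13 (SE 0.16) and 0.77 (SE 0.17).

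Type VI genes, whose chains form beaded filaments, went in both directions. *Col6a4* had 50.4, 45.0 and 43.3 normalized counts in control, 134, 156 and 115 in Rbbp4Ins/Ins, and 139, 183 and 135 in Rbbp4Ins/Del, and was higher by 1.53 (SE 0.16) and 1.72 (SE 0.15) on the log2 scale. Its neighbour *Col6a5*, which starts 28.8 kb beyond the end of *Col6a4* on chromosome 9, had 101, 107 and 115 in control, 117, 105 and 98.3 in Rbbp4Ins/Ins, and 146, 151 and 156 in Rbbp4Ins/Del. It overlapped control in Rbbp4Ins/Ins (log2 fold change 0.0, 95% interval -0.25 to 0.25) and was higher in every library of Rbbp4Ins/Del (0.49, SE 0.12, edgeR adjusted p = 2.9e-04). The widespread chain *Col6a2* had 45.3, 45.0 and 57.4 in control, 16.3, 18.1 and 29.6 in Rbbp4Ins/Ins, and 16.4, 12.6 and 18.5 in Rbbp4Ins/Del, and was lower, with log2 fold changes of -1.21 (SE 0.24) and -1.64 (SE 0.26). *Col6a1* had 61 reads in control against 30 and 34 and was not called (-0.99 and -0.78, edgeR adjusted p = 0.016 and 0.0474), but passed in Rbbp4Ins/Ins without control replicate 3 (-1.22, edgeR adjusted p = 0.00493). *Col6a6* was not called either, with 24 reads in control against 29 and 42, and *Col6a3*, at 22 to 27 reads per group, was not tested.

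Rarer genes complete the higher members. *Col26a1* had 12.8, 12.6 and 6.50 normalized counts in control, 32.5, 32.7 and 50.7 in Rbbp4Ins/Ins, and 61.3, 67.7 and 56.7 in Rbbp4Ins/Del, and rose by 1.82 (SE 0.29) and 2.51 (SE 0.26) on the log2 scale. *Col15a1*, a multiplexin like *Col18a1*, had 5 reads in control against 33 in Rbbp4Ins/Ins and 36 in Rbbp4Ins/Del, a ratio of 6.70 (95% exact interval 2.60 to 22.0) and 7.44 (2.91 to 24.3), but 4 of the 5 control reads came from replicate 1, without which the log2 fold changes moved from 2.65 and 2.80 to 4.07 and 4.22. *Col17a1*, a transmembrane collagen of hemidesmosomes, had 8.55, 13.6 and 18.4 in control, 18.0, 20.3 and 27.5 in Rbbp4Ins/Ins, and 31.7, 36.1 and 30.1 in Rbbp4Ins/Del. Its control and Rbbp4Ins/Ins libraries overlapped (0.72, SE 0.32, edgeR adjusted p = 0.0468), and it was called in Rbbp4Ins/Del (1.31, SE 0.30, adjusted p = 1.6e-04). *Col13a1*, a transmembrane collagen of muscle and synapses, was called in Rbbp4Ins/Ins (0.66, SE 0.18) but not without its replicate 1 (0.45, edgeR adjusted p = 0.0421), and gave 0.44 (SE 0.18, adjusted p = 0.0285) in Rbbp4Ins/Del. *Col14a1*, a FACIT chain, was called in Rbbp4Ins/Del alone (1.37, SE 0.40) and was lost without control replicate 1 or 2 or Rbbp4Ins/Del replicate 1 or 2 (1.17 to 1.25, edgeR adjusted p from 0.0178 to 0.0213).

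Among the lower members, *Col12a1*, a FACIT chain of dense connective tissue, had 109, 126 and 114 normalized counts in control, 9.41, 18.1 and 6.34 in Rbbp4Ins/Ins, and 11.2, 2.71 and 10.4 in Rbbp4Ins/Del. Its log2 fold changes were -3.38 (SE 0.25) and -3.87 (SE 0.27), with no overlap with control. *Col7a1*, the chain of anchoring fibrils, had 153, 157 and 131 in control, 53.0, 48.5 and 40.2 in Rbbp4Ins/Ins, and 71.6, 49.6 and 59.0 in Rbbp4Ins/Del, and fell by 1.63 (SE 0.15) and 1.30 (SE 0.15) on the log2 scale. *Col8a1*, of the short-chain networks of vessels and cornea, had 78 reads in control, 1 in Rbbp4Ins/Ins and 3 in Rbbp4Ins/Del, so that control exceeded the mutants 76.8-fold (95% exact interval 13.4 to 3070) and 25.2-fold (8.30 to 125), the single read being in replicate 2. Its partner chain *Col8a2* was lower in Rbbp4Ins/Ins alone (-0.91, SE 0.22, edgeR adjusted p = 3.4e-04) and gave -0.10 (SE 0.19) in Rbbp4Ins/Del. The remaining tested genes, *Col16a1*, *Col22a1* and *Col23a1*, were not called, at log2 fold changes of -1.11 and -0.60, -0.47 and -0.34, and 0.53 and 0.73, although *Col16a1* passed in Rbbp4Ins/Ins without replicate 1 of that line (-1.84, edgeR adjusted p = 0.00132). *Col25a1*, a transmembrane collagen of neurons, had 49, 12 and 24 reads per group and *Col19a1* and *Col28a1* had 11 to 19, and they were not tested, while *Col10a1*, the chain of growth plate cartilage, had no read in any library.

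Markers of other cell types moved along with these genes in part. Of 7 tested smooth muscle markers, 6 were lower in Rbbp4Ins/Ins and 5 in Rbbp4Ins/Del, and none was higher, where 29.4% and 31.9% of all genes were lower. The summed smooth muscle list was 3605 to 3844 normalized counts in control, 289 to 326 in Rbbp4Ins/Ins and 276 to 301 in Rbbp4Ins/Del. Most of the control sum came from *Tagln* and *Acta2*, with control means of 1994 and 863. *Myh11* was not called in either line (0.60 and 0.90 on the log2 scale, edgeR adjusted p = 0.258 and 0.0711). Of the fibroblast list, *Dcn*, *Lum*, *Postn*, *Fap* and *Dpt* had between 0 and 11 reads in every library, and none of the 12 was at 0 in all 9. Of its 5 tested members *Thy1* was higher in both lines (2.43 and 2.77 on the log2 scale), *Pdgfrb* (-1.28 and -1.23) and *Twist1* (-1.17 and -1.26) were lower in both, *Pdgfra* was higher in Rbbp4Ins/Del alone (0.89) and *Snai2* was not called. The list summed to 240.2 to 269.6 in control, 337 to 353 in Rbbp4Ins/Ins and 411 to 455 in Rbbp4Ins/Del. The sum of the other 11 members without *Thy1*, left out after the values were seen, was 195.8 to 223.0, 94.1 to 107 and 108 to 128. Among those too rare to test, *Postn* had 28, 3 and 4 reads per group, *Twist2* 23, 2 and 1, and *Prrx1* 28, 5 and 6. The 4 tested chondrocyte markers had 1 higher and 0 lower in each line, where 29% and 30.6% of all genes were higher, with sums of 218 to 243 in control, 184 to 240.4 in Rbbp4Ins/Ins and 229 to 249 in Rbbp4Ins/Del. Markers of primitive endoderm and its parietal and visceral derivatives summed to 435 to 471, 361 to 448 and 499 to 534. Parietal endoderm secretes type IV collagen, but this list also holds visceral endoderm markers, among them *Hnf4a*, *Amn* and *Cubn*. The members of the list moved apart, with 3 of 9 tested higher and 2 lower in Rbbp4Ins/Ins and 6 and 2 in Rbbp4Ins/Del. Among them, *Hnf4a* (3.68 and 3.96) and *Sox7* (1.63 and 2.22) were higher, and *Gata4* (-1.56 and -1.05) and *Dab2* (-1.35 and -1.29) lower. *Gata4* and *Sox7* lie between positions 40 and 80 Mb of chromosome 14, where genes tested had a median log2 fold change of -0.90 in each line. The part of that segment in their values was not tested. Endothelial markers summed to 634 to 669, 1376 to 1414 and 1435 to 1479. Of 7 tested, 2 were higher and 1 lower in Rbbp4Ins/Ins, and 3 and 2 in Rbbp4Ins/Del. *Tek* (1.31 and 1.41) and *Vwf* (1.36 and 1.20) were higher in both lines, and *Tie1* (-1.55 and -1.46) was lower in both. Beside the endoderm and endothelial lists, 29% and 30.6% of all genes were higher and 29.4% and 31.9% lower. The part of other cell types in the collagen differences was not tested.

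The ratio between chains of 1 collagen, taken within each library, does not depend on library size. The *Col5a3* to *Col5a1* ratio of reads was 0.0925, 0.134 and 0.116 in control, 0.861, 0.785 and 0.947 in Rbbp4Ins/Ins, and 0.809, 1.00 and 0.942 in Rbbp4Ins/Del. The *Col4a1* to *Col4a2* ratio was 1.64, 1.59 and 1.52 in control, 2.25, 2.04 and 2.18 in Rbbp4Ins/Ins, and 2.38, 2.47 and 2.69 in Rbbp4Ins/Del, so that the 3 groups did not overlap. The *Col11a1* to *Col11a2* ratio went from a mean of 17.9 ± 4.74 (SD, n = 3) in control to 2.44 ± 0.328 in Rbbp4Ins/Ins and 1.75 ± 0.484 in Rbbp4Ins/Del. The *Col9a2* to *Col9a3* ratio went up from 3.32 ± 0.379 to 7.62 ± 1.32 and 6.70 ± 0.429, *Col6a4* to *Col6a5* from 0.433 ± 0.0621 to 1.27 ± 0.188 and 1.01 ± 0.182, and *Col1a1* to *Col1a2* from 1.16 ± 0.149 to 2.75 ± 1.01 and 2.83 ± 0.945. For each of these 6 ratios, of 9 computed, both mutants lay outside the control range, with a two-sided exact permutation p of 0.1, the smallest that 3 against 3 libraries allow, which adjustment over the 9 ratios leaves as it is.

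**Figure D4:**
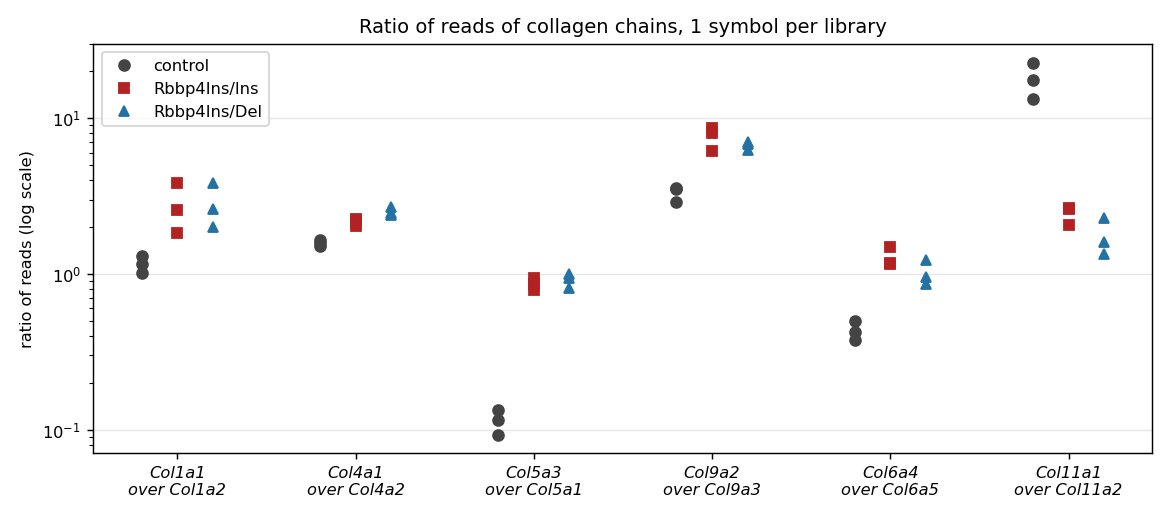
Ratio of reads between 6 pairs of collagen chains (vertical log axis), 1 symbol per library for control (circles), Rbbp4Ins/Ins (squares) and Rbbp4Ins/Del (triangles). Every pair separates both mutants from control, with *Col5a3* over *Col5a1* moving from a mean of 0.114 to 0.864 and 0.918 and *Col11a1* over *Col11a2* from 17.9 to 2.44 and 1.75.

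Compared directly, 6 collagens were higher and 0 lower in Rbbp4Ins/Del than in Rbbp4Ins/Ins by edgeR, where 6.17% and 4.64% of all genes were called. At an unadjusted p below 0.05, 9 were higher and 1 was lower (15.6% and 15.2% of all genes), and DESeq2 called 5 higher and 0 lower. The differences were 0.62 for *Col4a1* (SE 0.050, edgeR adjusted p = 5.1e-12), 0.41 for *Col4a2*, 0.37 for *Col5a1*, 0.45 for *Col5a3*, 0.49 for *Col6a5* and 0.81 for *Col8a2* on the log2 scale. *Col4a1*, *Col5a3* and *Col6a5* lay above control in Rbbp4Ins/Del, *Col4a2*, *Col5a1* and *Col8a2* lay nearer to it there than in Rbbp4Ins/Ins, and all 6 were among the 12 collagens whose Rbbp4Ins/Del libraries all lay above those of Rbbp4Ins/Ins (17.4% of all genes). *Col5a1* lost the call without Rbbp4Ins/Del replicate 1 (0.31, edgeR adjusted p = 0.0107), and *Col6a5* without Rbbp4Ins/Ins replicate 3 or Rbbp4Ins/Del replicate 2 or 3 (0.43 to 0.49, adjusted p from 0.0107 to 0.0176). *Col8a2* lost it without any 1 of the 6 mutant libraries (0.67 to 0.88, edgeR adjusted p from 0.0127 to 0.0529). *Col26a1* was not called (0.69, SE 0.20, edgeR adjusted p = 0.0131) but passed without Rbbp4Ins/Ins replicate 3 (0.93, adjusted p = 0.00395).

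Collagen chains are hydroxylated and glycosylated, folded and exported, trimmed, cross-linked, bound by receptors and degraded by other proteins, and 73 genes for these steps and for basement membrane partners were listed, of which 61 were tested. Of these, 21 were higher and 31 lower in Rbbp4Ins/Ins, and 22 and 27 in Rbbp4Ins/Del, where 29% and 29.4% and then 30.6% and 31.9% of all genes were higher and lower. These are the shares behind each count of the lists that follow. Of 12 tested modification genes 6 were higher and 2 lower in each line, and of 13 tested folding and export genes 6 were higher and 4 lower. P3h1, a prolyl 3-hydroxylase, was higher by 1.05 (SE 0.059) and 1.01 (SE 0.060) on the log2 scale, whereas the collagen chaperone *Serpinh1* (HSP47) was lower, from 1505 normalized counts in control to 618 and 553. P3h2 (-1.39 and -1.70) and P3h4 (-0.97 and -1.05) were lower as well. P3h2 shares 28.35% of its exonic length with *Gm4524* on the opposite strand.

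All 6 cross-linking genes were lower in each line, where 29.4% and 31.9% of all genes were. *Loxl2* (-1.64 in both lines) and the transglutaminase *Tgm2* (-1.36 and -1.61) were followed by *Loxl1* (-0.93 and -0.86), and the rarer *Lox*, *Loxl3* and *Loxl4* had log2 fold changes between -2.92 and -1.72. Of 7 tested propeptide processing genes, 3 were lower in Rbbp4Ins/Ins and 2 in Rbbp4Ins/Del, where 29.4% and 31.9% of all genes were. In each line 4 were higher, where 29% and 30.6% of all genes were, among them *Adamts2* (1.30 and 1.67) and the enhancer *Pcolce* (0.79 and 1.11). The C-proteinase *Bmp1* was lower, at 342, 365 and 282 normalized counts in control, 29.1, 15.8 and 16.9 in Rbbp4Ins/Ins, and 9.20, 10.8 and 22.0 in Rbbp4Ins/Del (-3.95, SE 0.17, and -4.59, SE 0.19). Of 7 tested receptors, 2 were higher and 5 lower in Rbbp4Ins/Ins, and 2 and 4 in Rbbp4Ins/Del, beside 29.4% and 31.9% of all genes lower. The discoidin domain receptors moved apart, with *Ddr1* at -2.33 (SE 0.058) and -2.42 (SE 0.059) and *Ddr2*, which binds fibrillar collagens, at 2.19 (SE 0.12) and 2.53 (SE 0.11). Integrin genes *Itgb1* (-1.14 and -1.08) and *Itga1* (-2.26 and -3.19) were lower and *Itga10* was higher (1.33 and 1.07). *Itga10* shares 33.53% of its exonic length with *Gm42957* on the same strand. The degradation list holds proteases and the TIMP inhibitors that act against them, and 5 of 6 tested were lower in Rbbp4Ins/Ins and 4 in Rbbp4Ins/Del, beside the same shares of all genes. The proteases *Mmp14* (-2.01 and -1.88) and *Mmp9* (-1.96 and -2.22) and the inhibitors *Timp2* (-1.14 and -1.44) and *Timp3* (-1.97 and -1.59) were lower in both lines.

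Of 10 basement membrane partners, 3 were higher and 6 lower in Rbbp4Ins/Ins, and 4 and 5 in Rbbp4Ins/Del. Higher calls were thus near the 29% and 30.6% of all genes, and lower calls above the 29.4% and 31.9%. *Nid1*, which links laminin to type IV collagen, was higher by 1.34 (SE 0.033) and 1.61 (SE 0.033), and *Pxdn*, which cross-links type IV collagen, was lower (-2.04, SE 0.057, and -1.78, SE 0.056), as were the laminin gene *Lamb1* (-1.01 and -0.99) and *Sparc* (-1.23 and -0.69), a collagen-binding matrix protein. Directly compared, 7 of the 10 were higher in Rbbp4Ins/Del than in Rbbp4Ins/Ins and 0 lower, where 6.17% of all genes were higher, as *Col4a1* and *Col4a2* were. No collagen gene lies on chromosome 14, but *Bmp1*, *Loxl2* and *Mmp14* lie between its positions 40 and 80 Mb, where 265 genes tested had a median log2 fold change of -0.90 in each line. The values of these 3 genes, and of the endoderm markers *Gata4* and *Sox7* in the same segment, include whatever moved that segment, and its part was not tested.

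**Figure D5:**
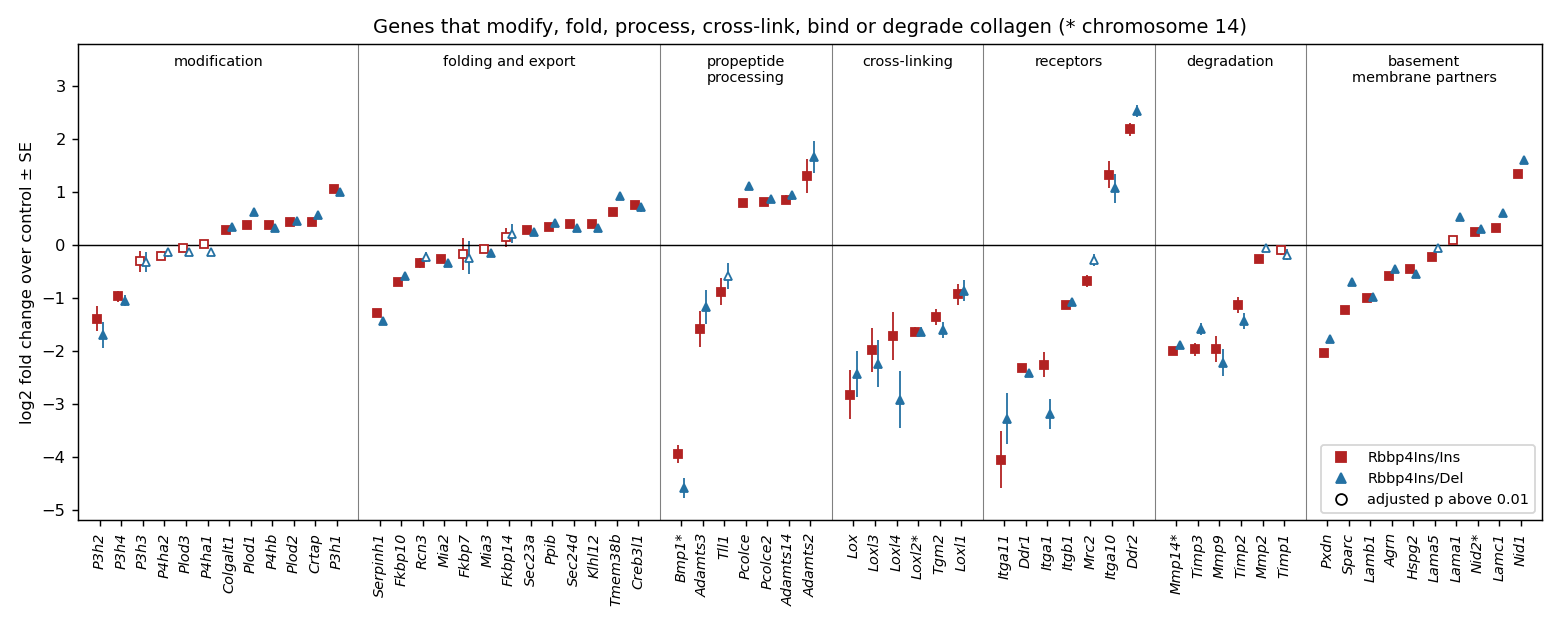
Log2 fold change over control (vertical axis, bars are 1 SE) of the 61 tested genes that act on or with collagens, by step, in Rbbp4Ins/Ins (squares) and Rbbp4Ins/Del (triangles), with filled symbols for an edgeR adjusted p of at most 0.01 and a star for chromosome 14. All 6 cross-linking genes lie below 0 in both lines, and *Ddr1* and *Ddr2* lie on opposite sides of it.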

How the data were processed

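RNA was extracted with TRIzol, made into libraries with an mRNA kit and sequenced as paired ends by the authors. Per the labels, reads were aligned with STAR 2.7.3 to mm10 and counted per gene with HTSeq, and the deposited values are raw read counts per gene symbol. The strand setting and annotation of the counting were not given in the sources used here. DESeq2 1.22.2 is also named there. Counts may depend on the strand setting where another gene lies on the opposite strand. Such overlap covered 62.42% of the exonic length of *Tagln*, 46.53% of *Twist2* and 21.28% of *Timp3*. Groups and replicate numbers came from the labels.

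Counts were joined over 25239 symbols, and filterByExpr left 14125 genes. edgeR 4.0.16 (R 4.3.3) fitted all 9 libraries in 1 quasi-likelihood model with 3 groups and TMM factors (0.9926 to 1.016). Adjusted p-values are Benjamini-Hochberg over all genes tested, called at 0.01. The study's methods used DESeq2, which is an alternative here (1.42.0). The biological coefficient of variation was 0.0286. Replicates differed beyond sampling noise (chi-square per gene 1.87 to 4.62). On simulated counts with 200 of 13898 genes changed, edgeR called 191 and 192 of them and 3 and 2 others in the comparisons of Rbbp4Ins/Ins and Rbbp4Ins/Del with control. The changed genes all had means above 20, and were a far smaller share than the 58.4% and 62.5% of genes called in the data. These figures therefore do not cover rarer genes or so widespread a change. Exact permutation tests and intervals used SciPy 1.17.1. Gene models and transcript lengths came from GENCODE M21 (GRCm38) and promoters from RefSeq (GRCm38.p6).

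Every collagen was accounted for. Values per library are given for the 3 most abundant members of each of the fibrillar, basement membrane and other collagens and for members called with an absolute log2 fold change above 1 and a mean above 20 normalized counts. Partner genes are named when called in both mutants with an absolute log2 fold change above 1 in at least 1 of them and a mean above 20, or when their list is given in full. The members, classes and lists were chosen with earlier results of these data known. Alternatives were DESeq2, other scalings and filters, only the 6 libraries compared, a replicate block, each library left out, an adjusted p-value limit of 0.05 and a test against a 2-fold change.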

Additional observations from a re-analysis of the deposited data

Results flagged for a closer look

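The Rbbp4Ins/Del and Rbbp4Ins/Ins lines, compared directly in the same edgeR quasi-likelihood fit with Benjamini-Hochberg adjustment, differed for 6 collagens, each higher in Rbbp4Ins/Del. The log2 differences were 0.62 for *Col4a1* (adjusted p = 5.1e-12), 0.41 for *Col4a2* (adjusted p = 2.0e-05), 0.37 for *Col5a1* (adjusted p = 5.8e-04), 0.45 for *Col5a3* (adjusted p = 3.0e-04), 0.49 for *Col6a5* (adjusted p = 0.0023) and 0.81 for *Col8a2* (adjusted p = 0.00752). The last has the widest error, with an SE of 0.22. Each line is 1 clone, so that a difference between alleles and one between clones cannot be told apart.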

How the results depend on the processing

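Under DESeq2, other scalings and filters, the 6 libraries compared alone and a limit of 0.05, the counts of collagens called stayed within 1.5 times those given. The test against a 2-fold change left 2 collagens higher in Rbbp4Ins/Ins, 4 higher and 9 lower in Rbbp4Ins/Del, and 0 higher in Rbbp4Ins/Del than in Rbbp4Ins/Ins, because it asks for a larger change. Its count of members lower in Rbbp4Ins/Ins is not given here. In that line the 95% intervals of the main fit lay beyond a 2-fold fall for *Col1a1* (-4.35 to -3.72) and *Col1a2* (-5.7 to -4.86). With each library left out in turn, 6 to 7 were higher and 17 to 18 lower in Rbbp4Ins/Ins, 9 to 10 and 14 to 15 in Rbbp4Ins/Del, and 4 to 6 and 0 between the mutants, where more genes passed the filter. Of 1789 values of single genes under an alternative, 1734 kept direction and call, 17 gained and 17 lost the call, and 21 changed sign, all of the last without a call and with a library left out. These leave-one-out log2 ranges were, in Rbbp4Ins/Ins against control, -0.42 to 0.19 for *Col9a1*, -0.20 to 0.03 for *Col9a3*, -0.01 to 0.02 for *Col18a1* and -0.05 to 0.14 for *Col27a1*. Between the mutants they were -0.33 to 3.20 for *Col3a1*, -0.65 to 1.57 for *Col4a6*, -0.27 to 0.16 for *Col5a2*, -0.07 to 0.39 for *Col11a2*, -0.38 to 0.01 for *Col13a1* and -0.01 to 0.39 for *Col15a1*. Under DESeq2, *Col14a1* in Rbbp4Ins/Del (1.37, adjusted p = 0.012) and *Col8a2* between the mutants (0.82, adjusted p = 0.0273) were not called.

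The replicate numbers share no stated culture or day, and deviations of same-numbered libraries correlated at -0.028 to 0.056, so that they were not taken as pairs. With the replicate block, 7 collagens were higher and 17 lower in Rbbp4Ins/Ins, 10 and 14 in Rbbp4Ins/Del, and 6 and 0 between the mutants, and *Col16a1* passed in Rbbp4Ins/Ins (-1.13, edgeR adjusted p = 0.00993).

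Each genotype was 1 line, and 8 collagens had too few reads to test. For those at 1 to 3 reads in a mutant, the counting intervals span over 10-fold.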
